A study of Mus musculus with 4 samples.

Results

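The 10 heat shock genes described here, Hspa1a, Hspa1b, Hspa8, Hsp90aa1, Hsp90ab1, Hsph1, Dnajb1, Hspd1, Hspe1 and Hspa5, were taken by name from the 19339 genes with a value in each of 4 RNA-seq libraries. All 10 passed the filter on low values that left 12009 genes for testing. The libraries hold RNA of intestinal TCRβ+CD8αα+ intraepithelial lymphocytes (IELs), T cells that live between the epithelial cells of the small intestine, from C57BL/6 mice. Both groups carry the floxed Kdm6b allele. The 2 libraries labelled Kdm6b fl/fl had no Cre and served as controls, and the 2 libraries labelled Kdm6b fl/fl-CD4Cre carried a Cre transgene under the CD4 promoter, which acts in developing αβ T cells and their progeny. In each group the libraries bear the replicate numbers 1 and 3, each was made from RNA pooled over 3 mice, and the labels name no treatment. Age and sex of the mice are not given in the sources used here, nor is what a replicate number stands for, so p-values measure the spread between these libraries only. To free the cells, the epithelium was digested before sorting in warm medium that held EDTA and dithiothreitol. What the digestion contributed to the values was not tested.

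Heat shock proteins are chaperones, which bind unfolded stretches of other proteins and help them to fold, to be transported or to be degraded. Some are made in every cell all the time, while others are made in quantity after heat, oxidants or other protein damage, when heat shock factor 1 trimerises and binds inverted repeats of the letters GAA and TTC upstream of its target genes. Each compartment has its own set, with HSP70, HSP90 and HSP40 proteins in the cytosol, HSP60 and its lid HSP10 in the mitochondrion and BiP in the endoplasmic reticulum.

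Values are FPKM, in which the number of fragments is divided by transcript length and by library size. Levels can be compared between genes, but between libraries they also depend on the mix of RNA, which differed here. Summed over all genes, FPKM ran from 578491 in Kdm6b fl/fl replicate 1 to 646671 in Kdm6b fl/fl-CD4Cre replicate 3. Differences are given on the log2(FPKM + 1) scale, on which a value of 1 is close to a doubling except for low genes, with standard errors (SE) from a limma model of all 12009 genes. With 2 libraries against 2, an exact two-sided permutation test of a single gene cannot go below p = 0.333, so the limma values with Benjamini-Hochberg adjustment over all genes tested are given.

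Kdm6b, the targeted gene, did not separate the groups. It stood at 16.5 and 16.01 FPKM in Kdm6b fl/fl replicates 1 and 3, and at 18.24 and 11.07 FPKM in the libraries labelled Kdm6b fl/fl-CD4Cre replicates 1 and 3 (log2 difference −0.18, SE 0.29, limma adjusted p = 0.886). FPKM over the whole gene does not show whether the floxed part was gone. T cell genes were abundant in all 4 libraries, and of the genes the sort selects against Cd8b1 lay between 0 and 1.64 FPKM. Cd4, the other such gene, was at 30.55 and 10.13 FPKM in Kdm6b fl/fl replicates 1 and 3 and at 30.47 and 3.17 FPKM in Kdm6b fl/fl-CD4Cre replicates 1 and 3. Epithelial RNA differed widely between libraries. The 22 epithelial markers examined summed to 1919 FPKM in Kdm6b fl/fl replicate 1, 5798 in Kdm6b fl/fl-CD4Cre replicate 1, 7653 in Kdm6b fl/fl replicate 3 and 16323 in Kdm6b fl/fl-CD4Cre replicate 3, and every marker was lowest in the first and highest in the last of these. Their log2 differences reached from 0.67 (Cdh1) to 1.71 (Krt18) by genotype and from 0.67 (Chga) to 2.19 (Lyz1) by replicate number. The 6 markers of the sorted cells (Ptprc, Cd3d, Cd3e, Cd3g, Cd8a and Itgae) summed to 4296, 3362, 3469 and 2539 FPKM in the same order of libraries. In such bulk samples fewer cells of a type and less RNA per cell cannot be told apart. Relative to Kdm6b fl/fl replicate 1, depth was between 0.824 and 1 in the other libraries.

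The heat shock genes made up 0.937% of all FPKM in Kdm6b fl/fl replicate 1, 1.04% in Kdm6b fl/fl replicate 3, 1.07% in Kdm6b fl/fl-CD4Cre replicate 1 and 1.1% in Kdm6b fl/fl-CD4Cre replicate 3. Hspa8, the HSP70 that cells make without stress, supplied between 42.0% and 44.7% of that sum in each library, and ranked 14th or 15th of all genes by FPKM. Next came Hspa5, then Hsp90ab1. In the control libraries Hsp90aa1 followed, ahead of Hspd1, Hspa1a, Hspe1, Dnajb1 and Hsph1, with Hspa1b far below the rest. Of the neighbours in that order, the control ranges of Hspd1 and Hspa1a overlapped, as did those of Hspa1a and Hspe1 and of Hspe1 and Dnajb1. In the libraries labelled Kdm6b fl/fl-CD4Cre the range of Hspa1a reached from 351.99 to 552 FPKM and so overlapped both Hsp90aa1 above it and Hspd1 below it. Transcripts of Hspa8, Hsp90aa1, Hspd1 and Hspe1 share 62.8%, 47.5%, 26.9% and 20.4% of their 100-base windows with other annotated genes. Among these are processed copies, so how the reads were divided is uncertain.

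**Figure D1:**
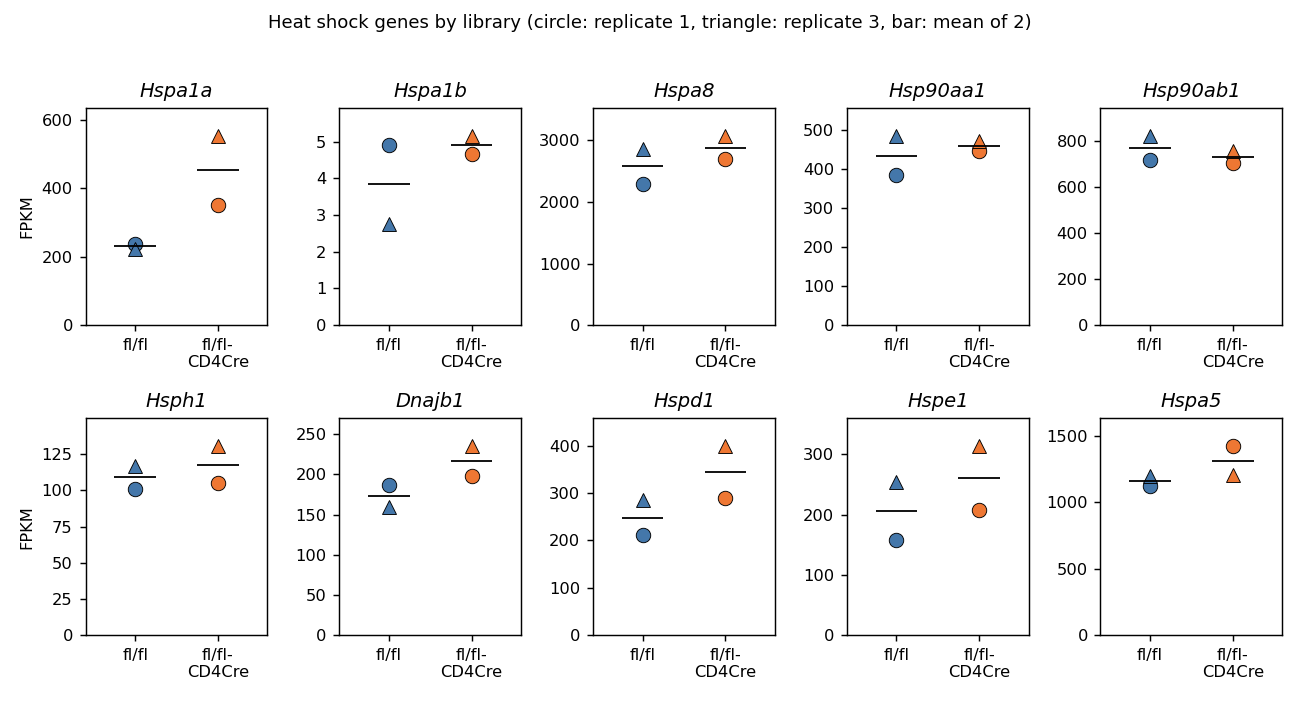
FPKM of the 10 heat shock genes in each library, with a linear axis from 0 for each gene, circles for replicate 1, triangles for replicate 3 and a bar at the mean of the 2 libraries of a group. For Hspa1a both libraries labelled Kdm6b fl/fl-CD4Cre lie above both control libraries, which sit together at 223.35 and 238.14 FPKM.

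Hspa1a and Hspa1b, the stress-inducible HSP70 genes, are a tandem pair of near-identical copies. Hspa1a (Entrez 193740) lies on chromosome 17 of GRCm38, bases 34969359 to 34972156 of the minus strand, and Hspa1b (Entrez 15511) at bases 34956429 to 34959238 of the same strand, each as a single exon. Of the coding sequence, 1915 bases are identical and 8 differ (99.6% identity), while Hspa1a shares 74.5% with Hspa8. The 250 bases before each start are shown because the likeness of the pair extends into them, with 247 of 250 identical, although the deposited levels of the genes differ widely. They are RefSeq sequences of GRCm38.p6, 5′ to 3′ on the minus strand, at chr17:34972157-34972406 for Hspa1a and chr17:34959239-34959488 for Hspa1b. No annotated exon falls in them. Capitals mark the letters GAANNTTC, a pair of heat shock element units, which stand 104 to 97 bases before the start in both.
Hspa1a: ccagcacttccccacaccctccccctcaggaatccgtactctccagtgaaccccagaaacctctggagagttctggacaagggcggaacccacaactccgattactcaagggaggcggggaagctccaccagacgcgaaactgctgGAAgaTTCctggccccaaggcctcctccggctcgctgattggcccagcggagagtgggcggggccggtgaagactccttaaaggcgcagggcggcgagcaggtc
Hspa1b: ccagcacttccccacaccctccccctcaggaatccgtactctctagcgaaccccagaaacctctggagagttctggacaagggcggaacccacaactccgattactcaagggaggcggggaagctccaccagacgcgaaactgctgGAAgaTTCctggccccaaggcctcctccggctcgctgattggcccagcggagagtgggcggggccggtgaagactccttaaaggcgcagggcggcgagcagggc

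Of the 10 genes, 7 matched RefSeq start windows by symbol (all but Hspa8, Hsp90aa1 and Hsp90ab1). The letters GAANNTTC or TTCNNGAA, which are each their own reverse complement, were found in a 300-base window of Hspa1a, Hspa1b, Hsph1, Hspd1 and Hspe1. They occur in 15.1% of all 32851 such windows. The longer forms GAANNTTCNNGAA or TTCNNGAANNTTC, which contain the shorter ones and read as each other on the opposite strand, occur in 0.603% of windows and were found for Hsph1, Hspd1 and Hspe1. Hspd1 and Hspe1 are neighbours that are read away from each other, and Hspd1 has 2 RefSeq starts. No match was found at the outer of these, which is the annotated start of the gene. A single stretch, chr1:55088053-55088082, lies before the inner start of Hspd1 and before the start of Hspe1, and is shown from either strand. It holds 4 units in a row, in capitals, and overlaps an annotated exon of Hspd1. The stretch of Hsph1 (chr5:149636351-149636380, minus strand) shows a pair of units upstream of both RefSeq starts found for Hsph1. It lies inside the annotated gene, whose outer end is base 149636498. The longer form of Hsph1 lies after both of these starts. Hspa5 held no such pair but the letters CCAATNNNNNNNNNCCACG, the element bound under endoplasmic reticulum stress, searched on both strands and found in 0.119% of windows. Its stretch (chr2:34772020-34772049, plus strand) has both ends of that element in capitals. These stretches overlap annotated exons of Hsph1 and Hspa5. None of these letters were found in the windows of Dnajb1.
Hspd1, minus strand: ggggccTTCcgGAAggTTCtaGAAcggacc
Hspe1, plus strand: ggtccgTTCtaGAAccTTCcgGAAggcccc
Hsph1: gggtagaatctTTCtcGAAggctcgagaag
Hspa5: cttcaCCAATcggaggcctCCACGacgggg

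Hspa1a had the largest difference by genotype of the 10 genes. It was at 238.14 and 223.35 FPKM in Kdm6b fl/fl replicates 1 and 3, and at 351.99 and 552 FPKM in Kdm6b fl/fl-CD4Cre replicates 1 and 3. The control libraries lay close together, the libraries labelled Kdm6b fl/fl-CD4Cre were both above them, and the groups did not overlap. The means were 231 ± 10.5 and 452 ± 141 FPKM (SD, n = 2 each). On the log2(FPKM + 1) scale the difference was 0.93 (SE 0.26, unadjusted p = 0.0135), or 1.91-fold. After adjustment over all genes the limma p was 0.755, so the difference did not pass the threshold of 0.05. Within replicate 1 the log2 difference was 0.56 and within replicate 3 it was 1.30. Without Kdm6b fl/fl-CD4Cre replicate 3 the difference was 0.61. Kdm6b fl/fl replicate 3, with 3.99 times the summed epithelial markers of Kdm6b fl/fl replicate 1, had the lowest Hspa1a level of the 4 libraries. Kdm6b fl/fl-CD4Cre replicate 3 was the highest library for Hspa1a and for the summed epithelial markers (16323 FPKM, against 5798 in Kdm6b fl/fl-CD4Cre replicate 1). The part of epithelial RNA in the Hspa1a difference was not tested. The summed level of myeloid markers, cells which the sort should leave out, stood in the same order of libraries as Hspa1a. The 5 markers (Lyz2, Itgax, Csf1r, Cd14 and Itgam) summed to 438.5 and 291.2 FPKM in Kdm6b fl/fl replicates 1 and 3 and to 474.1 and 694.6 FPKM in Kdm6b fl/fl-CD4Cre replicates 1 and 3. None was at 0 in any library, all 5 had positive differences by genotype (median 0.47), and most of the sum was Lyz2. Taken singly, Lyz2 had the order of Hspa1a and the other 4 markers did not. Their part in the Hspa1a difference was not tested.

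Hspa1b was listed at a small part of that level, with 4.92 and 2.75 FPKM in Kdm6b fl/fl and 4.65 and 5.15 FPKM in Kdm6b fl/fl-CD4Cre replicates 1 and 3. Its groups overlapped (log2 difference 0.32, SE 0.35, limma adjusted p = 0.833), and the difference was −0.01 without Kdm6b fl/fl replicate 3 and 0.65 without Kdm6b fl/fl replicate 1. Since 47.1% of the 100-base windows of the Hspa1a transcript also occur in Hspa1b, the split between the copies is uncertain, and their sum is the safer measure. The sum was 243.06 and 226.1 FPKM in the control libraries against 356.64 and 557.15 FPKM, of which Hspa1a made up between 98.0% and 99.1%. It gave the same picture as Hspa1a alone (log2 difference 0.92, SE 0.26, limma adjusted p = 0.755).

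Dnajb1 encodes the HSP40 protein that delivers clients to the inducible HSP70 and starts its ATP cycle. It stood at 186.39 and 159.97 FPKM in Kdm6b fl/fl replicates 1 and 3, and at 198.67 and 234.84 FPKM in Kdm6b fl/fl-CD4Cre. As with Hspa1a, the control of replicate 3 was the lowest library, Kdm6b fl/fl-CD4Cre replicate 3 the highest, and the groups did not overlap. The difference was 1.25-fold (log2 0.32, SE 0.19, limma adjusted p = 0.757). It was 0.20 without Kdm6b fl/fl-CD4Cre replicate 3 and 0.21 without Kdm6b fl/fl replicate 3. Hsph1, an HSP110 protein that exchanges the nucleotide of HSP70, had 101.2 and 116.75 FPKM in Kdm6b fl/fl and 104.99 and 130.33 FPKM in Kdm6b fl/fl-CD4Cre. Its genotypes overlapped, and each replicate 3 library was above each replicate 1 library. Hspa8 showed the same pattern at a far higher level, with 2293.58 and 2864.72 FPKM in Kdm6b fl/fl and 2699.23 and 3068.46 FPKM in Kdm6b fl/fl-CD4Cre. The ratio of Hspa8 to Hspa1a was 9.63 and 12.8 in Kdm6b fl/fl replicates 1 and 3, and 7.67 and 5.56 in their Cre counterparts.

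Hsp90aa1 and Hsp90ab1 encode the cytosolic HSP90 proteins, the first more responsive to stress and the second made at a steady rate. Hsp90aa1 was at 385.31 and 484.63 FPKM in Kdm6b fl/fl and at 445.52 and 471.91 FPKM in Kdm6b fl/fl-CD4Cre replicates 1 and 3. Hsp90ab1 was at 717.2 and 821.97 FPKM in Kdm6b fl/fl and at 706.02 and 757.33 FPKM in Kdm6b fl/fl-CD4Cre. Both overlapped between genotypes, and both were higher in each replicate 3 library than in each replicate 1 library. Hsp90ab1 was the only one of the 10 with a negative difference by genotype (log2 −0.07, SE 0.21, limma adjusted p = 0.943), and that sign turned to 0.03 without Kdm6b fl/fl replicate 3. The highest of the 4 Hsp90ab1 values was 1.16 times the lowest, the smallest range among the heat shock genes.

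Hspd1 and Hspe1, which encode the mitochondrial HSP60 barrel and its HSP10 lid, had positive differences by genotype and by replicate number, none of which passed the adjusted threshold. Hspd1 was at 211.22 and 284.85 FPKM in Kdm6b fl/fl replicates 1 and 3, and at 288.87 and 398.08 FPKM in Kdm6b fl/fl-CD4Cre. Hspe1 was at 158.66 and 254.56 FPKM in Kdm6b fl/fl, and at 207.48 and 312.84 FPKM in Kdm6b fl/fl-CD4Cre. Both genes were lowest in Kdm6b fl/fl replicate 1 and highest in Kdm6b fl/fl-CD4Cre replicate 3, and their ratio stayed between 1.12 and 1.39. By genotype Hspd1 was 1.38-fold higher without overlap (log2 0.47, SE 0.25, limma adjusted p = 0.755), by 285 against 289 FPKM at the closest. Without Kdm6b fl/fl-CD4Cre replicate 3 the difference was 0.23, without Kdm6b fl/fl replicate 1 it was 0.25, and without Kdm6b fl/fl-CD4Cre replicate 1 it was 0.70. Hspe1 overlapped by genotype, and its log2 difference of 0.34 (SE 0.32) was 0.00 without Kdm6b fl/fl replicate 1, 0.05 without Kdm6b fl/fl-CD4Cre replicate 3, 0.64 without Kdm6b fl/fl-CD4Cre replicate 1 and 0.68 without Kdm6b fl/fl replicate 3. By replicate number Hspe1 was 1.55-fold higher in replicate 3 without overlap (log2 0.63, SE 0.21, unadjusted p = 0.0253, limma adjusted p = 0.524), the largest such difference of the 10. The 4 libraries stand in the same order for Hspe1 as for the summed epithelial markers, and the part of epithelial RNA in these differences was not tested.

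Hspa5 encodes BiP, the HSP70 of the endoplasmic reticulum, which is induced by unfolded protein there rather than by cytosolic heat shock. It was at 1123.23 and 1201.03 FPKM in Kdm6b fl/fl and at 1419.74 and 1205.6 FPKM in Kdm6b fl/fl-CD4Cre replicates 1 and 3. The highest library was here Kdm6b fl/fl-CD4Cre replicate 1, unlike in the other genes. The genotypes did not overlap, though 1201.03 and 1205.6 FPKM lie next to each other (log2 difference 0.17, SE 0.23, limma adjusted p = 0.859). Without Kdm6b fl/fl-CD4Cre replicate 1 the difference was 0.05, and without Kdm6b fl/fl-CD4Cre replicate 3 it was 0.29.

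Counted together, 9 of the 10 heat shock genes had a positive log2 difference by genotype (50.1% of all genes tested), with a median of 0.25 against 0.00 over all genes tested. No heat shock gene passed a limma adjusted p of 0.05. Neither did any of the 12009 genes (0.0% called), of which 642 had an unadjusted p under 0.05 (5.35%), Hspa1a being the only heat shock gene among them. In 4 of 10 (Hspa1a, Dnajb1, Hspd1 and Hspa5) both libraries labelled Kdm6b fl/fl-CD4Cre were above both control libraries, beside 18.4% of all genes, and in none were both below, beside 18.6%. The median depended on single libraries and was 0.06 without Kdm6b fl/fl replicate 1 and 0.14 without Kdm6b fl/fl-CD4Cre replicate 3.

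By replicate number the median difference of replicate 3 from replicate 1 was 0.23, against −0.01 over all genes, and 8 of 10 were positive (49.2% of all genes). No gene passed the limma adjusted threshold (0.0% called), 1089 genes had an unadjusted p under 0.05 (9.07%), and Hspe1 was the only heat shock gene among them. Both replicate 3 libraries were above both replicate 1 libraries in 5 of 10 (Hspa8, Hsp90aa1, Hsp90ab1, Hsph1 and Hspe1), beside 22.3% of all genes, and in none were both below, beside 22.8%. The genes that separated by genotype and those that separated by number had no member in common, as the 2 patterns exclude each other by construction. The median was 0.12 without Kdm6b fl/fl replicate 1. Cd4 also went with the number, with both replicate 1 libraries above both replicate 3 libraries, and its part was not tested. Hspa1a showed no separation by number (log2 difference 0.28, SE 0.45, limma adjusted p = 0.821), nor did Dnajb1 (0.01, SE 0.23, adjusted p = 0.987). Both turned on single libraries. Without Kdm6b fl/fl-CD4Cre replicate 3 Hspa1a had −0.37 and Dnajb1 −0.27, and without Kdm6b fl/fl replicate 3 they had 0.93 and 0.29.

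**Figure D2:**
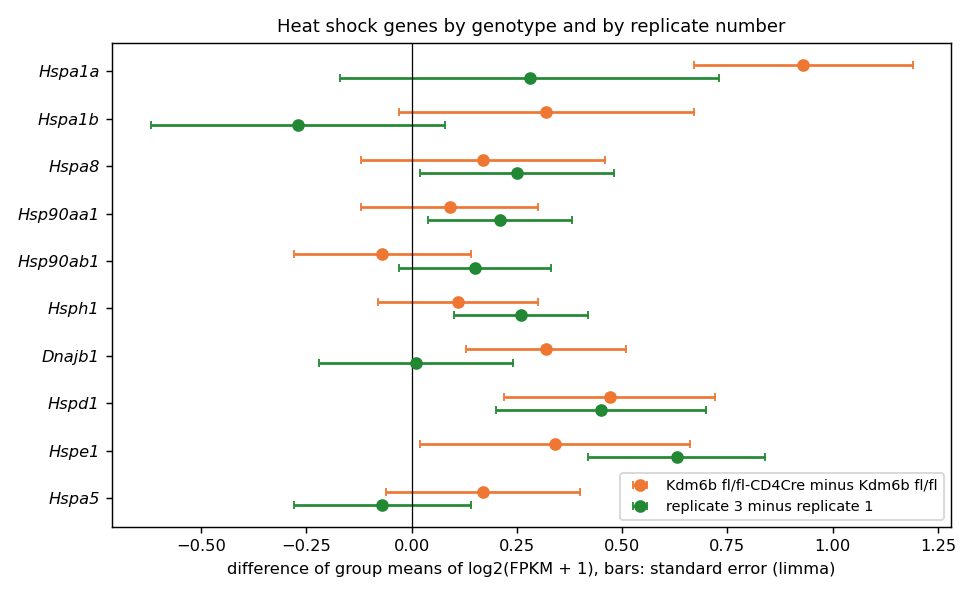
Differences of group means of log2(FPKM + 1) for the 10 heat shock genes, by genotype (orange) and by replicate number (green), with bars of 1 limma standard error and 2 libraries in each group. Hspa1a at 0.93 by genotype and Hspe1 at 0.63 by replicate number lie farthest from 0.

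Kdm6b fl/fl replicate 1 was the lowest library for 6 of the heat shock genes, beside 31.8% of all genes, and Kdm6b fl/fl-CD4Cre replicate 3 the highest for 7, beside 33.1%. Both held for 4 of them (Hspa8, Hsph1, Hspd1 and Hspe1), beside 22.0%. The full order of the 4 libraries by epithelial markers was met by Hspa8, Hsph1 and Hspe1, 3 of 10 beside 12.6% of all genes. The reverse order was met by 0 of 10, beside 9.79%.

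**Figure D3:**
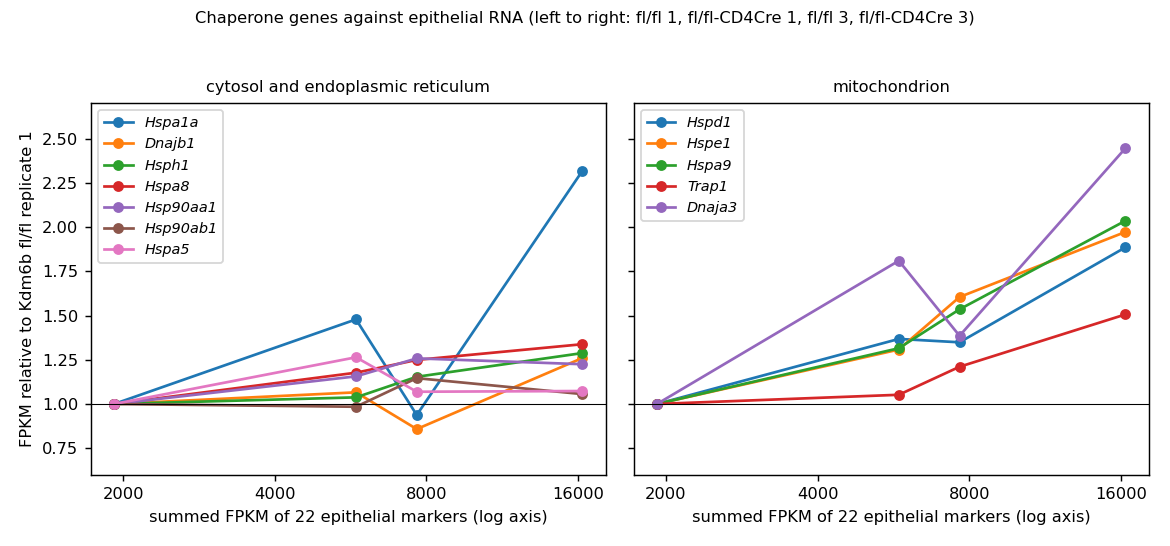
FPKM of heat shock genes and of mitochondrial partners relative to Kdm6b fl/fl replicate 1, against the summed FPKM of 22 epithelial markers (log axis, 1 point per library). Hspa9 and Hspe1 climb from left to right, while Hspa1a dips in the third library, Kdm6b fl/fl replicate 3, at 223.35 FPKM.

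The 3 heat shock transcription factors that passed the filter on low values (Hsf1, Hsf2 and Hsf4) had negative differences by genotype, with a median of −0.29 and a range from −0.47 in Hsf4 to −0.02 in Hsf2. By replicate number Hsf2 was lowest at −0.56 and Hsf4 highest at 0.45. Hsf1, the factor that answers heat, was at 44.22 and 45.57 FPKM in Kdm6b fl/fl and at 36.77 and 36.51 FPKM in Kdm6b fl/fl-CD4Cre, with no overlap (log2 difference −0.29, SE 0.17, limma adjusted p = 0.757). Hsf2 was at 5.69 and 4.0 FPKM against 6.23 and 3.47 FPKM.

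Among the 7 other HSP70 and HSP110 genes tested, 6 had negative differences by genotype (median −0.11), down to −0.24 for Hspa14, which assists new proteins at the ribosome. The exception was Hspa9, the mitochondrial HSP70, at 86.14 and 132.23 FPKM in Kdm6b fl/fl and 113.28 and 175.29 FPKM in Kdm6b fl/fl-CD4Cre. It had the same order of libraries as Hspe1, and differed by 0.62 by replicate number (SE 0.23, limma adjusted p = 0.524). Hspa4, an HSP110 of the unstressed cytosol, lay between 58.27 and 69.29 FPKM, and Hspa4l, its relative, between 7.71 and 12.2 FPKM. By replicate number the lowest difference was −0.03, in Hspa2. Both remaining HSP90 genes, Hsp90b1 of the endoplasmic reticulum and Trap1 of the mitochondrion, were higher in both replicate 3 libraries (log2 differences 0.27 and 0.39) and overlapped by genotype.

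The 20 other HSP40 genes split evenly, with 10 positive and 10 negative differences by genotype and a median of −0.04. Dnaja3, the mitochondrial HSP40, was the most positive at 0.81 (20.37 and 28.22 FPKM against 36.86 and 49.79 FPKM), without overlap (SE 0.26, limma adjusted p = 0.755). Dnaja1, a cytosolic partner of Hspa8, had −0.23, Dnajb4 had −0.16, and Dnajc9 was the most negative at −0.24. By replicate number the extremes were Dnaja4 at −0.83 and Dnajc10 at 0.46. Of the 20 co-chaperones, 9 were positive by genotype (median −0.01), from Bag2 at −0.38 to Bag1 at 0.79, and by replicate number they reached from Fkbp5 at −0.38 to Bag3 at 0.81. Bag3, which couples HSP70 to autophagy and is a classic target of heat shock factor 1, had 2.41 and 4.95 FPKM in Kdm6b fl/fl and 4.8 and 9.16 FPKM in Kdm6b fl/fl-CD4Cre, which overlapped. The HSP90 partners Stip1, Ahsa1 and Chordc1 had differences of −0.20, −0.15 and −0.23, and Ptges3 (p23) had 0.24. Fkbp4, another HSP90 partner, was at 118.92 and 201.28 FPKM against 161.29 and 283.16 FPKM, with a difference by replicate number of 0.78 (SE 0.25, limma adjusted p = 0.524).

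The 8 subunits of the cytosolic CCT chaperonin, which folds actin and tubulin, had a median of −0.01 by genotype, from Cct7 at −0.10 to Tcp1 at 0.15. By replicate number the median was 0.19, from Cct2 at −0.07 to Cct8 at 0.29, and 6 of 8 were higher in both replicate 3 libraries, beside 22.3% of all genes. Of the 10 mitochondrial chaperones and proteases, 9 had positive differences by genotype (median 0.17), led by the protease Lonp1 at 0.99 (12.84 and 9.34 FPKM against 20.08 and 25.86 FPKM, SE 0.27, limma adjusted p = 0.755), with Htra2 lowest at −0.11. By replicate number their median was 0.21, from Lonp1 at −0.04 to Hspa9 at 0.62, and 6 of 10 separated upwards, beside 22.3% of all genes. In the order of the epithelial markers stood 6 of 10, beside 12.6%. Grpel1, the nucleotide exchange factor of Hspa9, was among the positive genes by genotype at 0.17.

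The 20 genes of the endoplasmic reticulum stress list, the companions of Hspa5, had a median of 0.07 by genotype, with 13 positive, from Atf4 at −0.35 to Manf at 0.27. The stress-induced factor Ddit3 (CHOP) had 205.33 and 194.29 FPKM in Kdm6b fl/fl and 227.92 and 130.52 FPKM in Kdm6b fl/fl-CD4Cre. Herpud1, which helps to degrade proteins from that compartment, had 369.36 and 329.24 FPKM against 471.47 and 294.69 FPKM, and Xbp1, a factor of the same response, had 171.25 and 177.05 FPKM against 204.92 and 180.23 FPKM. By replicate number the list reached from Eif2ak3 at −0.62 to Hyou1 at 0.55. Of 9 small heat shock proteins listed, 5 were analysed and 3 passed the filter. Hspb1 (HSP27) was at 9.39 and 8.0 FPKM against 10.29 and 17.16 FPKM, and Hspb8 at 0.62 FPKM or less in every library. Cryab, a small heat shock protein of lens and muscle, was listed at 0 in both control libraries and at 1.26 and 1.17 FPKM in the others. Of the 3 that passed the filter, Hspb6 had the lowest difference by genotype at −0.31 and the highest by replicate number at 0.53.

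Over the 85 tested genes of these lists together, 45 were positive by genotype with a median of 0.03, and 52 by replicate number with a median of 0.09. By genotype 10 separated upwards and 17 downwards, beside 18.4% and 18.6% of all genes, and by replicate number 33 and 7, beside 22.3% and 22.8%. By limma no gene of the lists passed the adjusted threshold in either comparison, and the unadjusted p was under 0.05 for 5 by genotype, beside 5.35% of all genes, and for 6 by number, beside 9.07%.

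Immediate-early genes, which are transcribed within minutes of a stimulus, were looked at as a second kind of rapid response. Of 18, 14 had positive differences by genotype (median 0.40) and 9 by replicate number (median 0.04), again with none called by limma. The unadjusted p was under 0.05 for 1 by genotype, beside 5.35% of all genes, and for 2 by number, beside 9.07%. Like every epithelial marker, 9 of 18 were lowest in Kdm6b fl/fl replicate 1 and highest in Kdm6b fl/fl-CD4Cre replicate 3, beside 22.0% of all genes. The part of epithelial RNA in these genes was not tested. Atf3 was the most positive by genotype at 1.07, with 71.9 and 109.41 FPKM in Kdm6b fl/fl and 150.35 and 232.91 FPKM in Kdm6b fl/fl-CD4Cre, and no overlap. Fos, with 427.23 and 733.38 FPKM against 749.76 and 1268.31 FPKM, likewise did not overlap. Unlike Hspa1a, both of these were higher in Kdm6b fl/fl replicate 3 than in Kdm6b fl/fl replicate 1. Jun (152.63 and 227.24 against 214.02 and 441.42 FPKM) and Egr1 (90.6 and 205.17 against 184.4 and 381.95 FPKM) overlapped by genotype, and Egr1 had the largest difference by replicate number, 1.11. Dusp1 was instead higher in the replicate 1 library of each genotype (600.23 against 469.8 FPKM in Kdm6b fl/fl, and 850.88 against 543.9 FPKM in Kdm6b fl/fl-CD4Cre). Fosl2 at −0.50 by genotype and Jund at −0.62 by replicate number were the lowest.

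**Figure D4:**
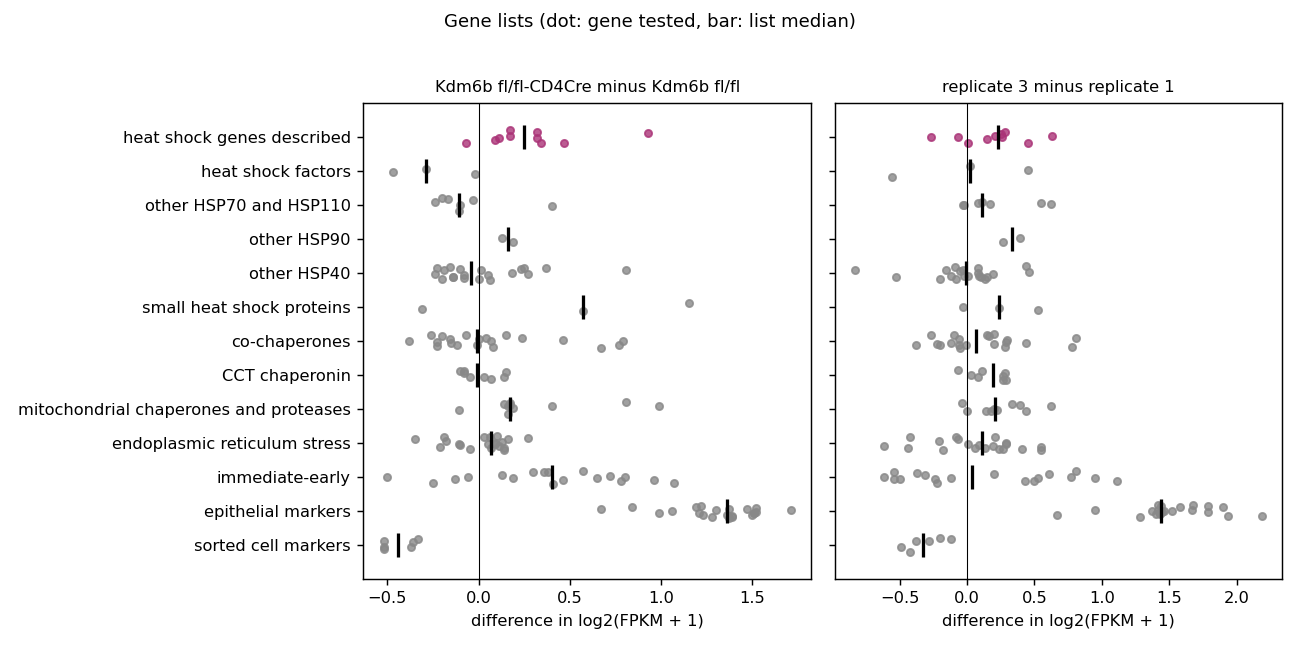
Differences in log2(FPKM + 1) for every tested gene (dot) of each list, by genotype on the left and by replicate number on the right, with the list median as a bar. The 10 heat shock genes have medians of 0.25 and 0.23, and the epithelial markers of 1.36 and 1.44.

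The genes whose pattern over the 4 libraries was most like the Hspa1a and Hspa1b sum were found by the root mean square distance between mean-centred values of log2(FPKM + 1). The nearest were Aldh1l1 (0.046), Elmo3 (0.053), Camk2d (0.073), Pcx (0.076) and Tc2n (0.077), where the median gene was at 0.568. All 5 were at 21.74 FPKM or less, far below Hspa1a, and the added 1 FPKM compresses such low genes. Pcx (0.55 to 2.6 FPKM) and Tc2n (0.52 to 2.99 FPKM) thus spanned a wider ratio of FPKM than the sum did. Of the other heat shock genes, Hspd1 (0.304) and Dnajb1 (0.336) came nearest and Hsp90ab1 (0.543) was the farthest. The distances rest on 4 libraries and are a description.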

How the data were processed

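RNA of sorted TCRβ+CD8αα+ IELs, pooled from 3 mice per library, was sequenced in 4 libraries. The authors mapped reads to mm10 with HISAT and Bowtie2 (2.2.5 in the submitters' processing notes) and quantified genes with RSEM (1.2.8). The deposited values are FPKM with 2 decimals, and no counts were used here. Identifiers were matched to RefSeq symbols of GRCm38.p6 (18467 of 19339). The 10 heat shock genes and all lists were chosen with earlier results of these data known. Genes that reached 1 FPKM in 2 or more libraries were tested as log2(FPKM + 1), without further scaling, with lmFit and eBayes with a trend (limma 3.58.1, R 4.3.3), separately by genotype and by replicate number, with Benjamini-Hochberg adjustment and a threshold of 0.05. The model was checked on simulated data. Depth was set relative to Kdm6b fl/fl replicate 1 by the commonest ratio of low FPKM values, so no counting error was computed. Genes named were the heat shock genes, a fixed set of partners, factors and immediate-early genes, the highest and lowest of each list (for markers of the sorted, myeloid and stromal cells the sum instead), and the 5 nearest patterns. Lists are described by counts and medians, and no list was tested. Lists of myeloid and stromal markers were also measured. Alternatives were the pseudocount, filter, scaling, trend, summing of the Hspa1 copies, a replicate block and leaving out each library.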

Additional observations from a re-analysis of the deposited data

Results flagged for a closer look

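In 5 of the 10 heat shock genes a difference had opposite signs in the 2 genotypes or at the 2 replicate numbers, beside 47.5% of all genes tested. With 1 library for each genotype and number, none of these contrasts could be tested. Replicate 3 minus replicate 1 was positive in Kdm6b fl/fl-CD4Cre and negative in Kdm6b fl/fl for Hspa1a (0.65 and −0.09 on the log2 scale, 0.74 apart), for Hspa1b (0.12 and −0.66, 0.78 apart) and for Dnajb1 (0.24 and −0.22, 0.46 apart). For Hspa5 the signs were the other way round (−0.24 in Kdm6b fl/fl-CD4Cre and 0.10 in Kdm6b fl/fl, a difference of −0.33). For Hsp90aa1 the genotype difference was 0.21 at replicate 1 and −0.04 at replicate 3, a difference of −0.25. Hspa1b also had opposite signs by this contrast (−0.07 at replicate 1 and 0.71 at replicate 3).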

How the results depend on the processing

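No gene was called by limma in either comparison in the fits without a second term, except 3 by replicate number without Kdm6b fl/fl-CD4Cre replicate 1 (range 0 to 3 on leaving out 1 library, and 0 to 0 by genotype). Where a lone library was left, it was assumed to vary like the others. With a replicate block 1019 genes were called by genotype, 886 of them higher, and Hspa1a had an adjusted p of 0.00851. With genotype as a term 1364 were called by replicate number, 966 of them higher, and Hspe1 had an adjusted p of 0.0135. The deviations of same-numbered libraries correlated at 0.56 across genes, but with only 2 pairs the numbers are not known to pair the libraries. The median of the heat shock genes ranged from 0.06 to 0.32 by genotype and from 0.12 to 0.30 by replicate number on leaving out 1 library. Setting the sum of Ptprc and the Cd3 genes equal shifted all genes upwards, by a median of 0.34 (genotype) and 0.35 (number). Under it the genotype median of the heat shock genes was 0.59, Hsp90ab1 had 0.31 by genotype, and by number Hspa1b had 0.07 and Hspa5 0.33, so that Hsp90ab1, Hspa1b and Hspa5 stayed below the median of all genes. Under quantile normalization the medians were 0.14 by genotype and 0.06 by number, Hspa8 had 0.00 in both, and by number Hsp90ab1 had −0.02, Dnajb1 −0.07 and Hspa5 −0.43. On leaving out 1 library, signs also turned by genotype for Hsp90aa1 (−0.08 to 0.25, negative without Kdm6b fl/fl replicate 1), Hspa1b (−0.01 to 0.65) and Hsp90ab1 (−0.17 to 0.03), both turned without Kdm6b fl/fl replicate 3, and Hsph1 (−0.05 to 0.26, negative without Kdm6b fl/fl-CD4Cre replicate 3). By number they turned for Hspa1a (−0.37 to 0.93, negative without Kdm6b fl/fl-CD4Cre replicate 3), Dnajb1 (−0.27 to 0.29, negative without that library or Kdm6b fl/fl replicate 1), Hspa1b (−0.63 to 0.09, positive without Kdm6b fl/fl replicate 3) and Hspa5 (−0.24 to 0.10, positive without Kdm6b fl/fl-CD4Cre replicate 1). The cause of these changes was not tested. Hspa1a stayed positive by genotype in all settings, from 0.61 to 1.31.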

Other observations

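Markers of stromal cells, which the sort should leave out, were low. Summed over 5 stromal markers (Col1a1, Col3a1, Dcn, Pdgfra and Pecam1) FPKM lay between 13.63 and 17.98, with the highest sum in Kdm6b fl/fl replicate 1.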
